A study of Mus musculus with 12 samples.

Results

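A set of 10 genes that mark macrophages of the brain's borders and blood monocytes were described in mouse brain tissue after ischemic stroke. They were taken by symbol from a table of raw counts per gene, where all 10 had a row among 25124 genes, and all 10 passed the filter on low counts that left 17612 genes for testing. The genes were Mrc1, Folr2, Clec10a, Cbr2, Cd163, Lyve1, F13a1, Pf4, Plac8 and Ly6c2. The 12 libraries fall into 4 groups of 3. All mice had their middle cerebral artery occluded (MCAo), received doxycycline at 200 mg/kg, and gave tissue 28 days later from the hemisphere with the lesion (ipsilateral) and from the opposite, intact one (contralateral). DKK1 mice carried 3 constructs: Gt(ROSA)26Sortm1.1(rtTA,EGFP)Nagy, a doxycycline-dependent activator (rtTA) with EGFP at the ROSA26 locus, then Hprttm1(tetO-Dkk1)Spdl, a tetO-driven Dkk1 at Hprt, and the reporter Tg(TCF/Lef1-lacZ)34Efu/J. Dkk1 encodes a secreted antagonist of Wnt signalling, and its induction began 3 days after MCAo. WT mice were C57BL6/J. The labels give no age of the mice, no promoter or cell type for rtTA beyond the locus, and no transgenic group without doxycycline, so that induced DKK1, the other transgenes and any difference in strain background cannot be told apart. Nor do the labels say that each library of a group is a different animal. The p-values therefore measure the spread between these libraries, which may be technical.

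Border macrophages line the meninges, the spaces around brain vessels and the choroid plexus. They take up material through scavenger and lectin receptors, and most persist as residents with little exchange from blood. Monocytes are blood cells that enter injured brain and can become macrophages there, losing early markers such as Ly6C as they do. Many border macrophage genes are also switched on in macrophages derived from monocytes, so a gene of either group does not by itself name the origin of a cell in whole tissue. In bulk tissue, more cells of a type and more RNA per cell cannot be told apart.

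A pair of sequence sets bears on how these genes can be read. The first shows the start of the coding sequences of Ly6c2 and Ly6c1, neighbours in the Ly6 family, because Ly6c2 marks inflammatory monocytes while Ly6c1 is also a gene of brain endothelium, and reads from shared stretches cannot be assigned to one of them. Bases 1 to 90 are given 5′ to 3′, read from the mm10 genome and its gene annotation (chromosome 15), with the 6 differing bases in capitals.
Ly6c2: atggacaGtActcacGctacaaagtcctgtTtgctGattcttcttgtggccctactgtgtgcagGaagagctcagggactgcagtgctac
Ly6c1: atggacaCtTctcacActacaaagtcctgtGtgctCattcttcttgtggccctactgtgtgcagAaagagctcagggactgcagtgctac
Both coding sequences are 393 bases long, differ at 9 bases (97.71% identity) and share an identical run of 188 bases. Of the 50-base words in the Ly6c2 transcript, 33.0% also occur in transcripts of other genes, nearly all of them in Ly6c1. The same share was 17.2% for Clec10a, whose shared words are in its neighbour Mgl2, 15.1% for Cbr2, shared with Gm11771, and 0.09% for Cd163. It was 0 for the other 6 genes.

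The second set is the promoter windows of 3 genes that were higher in lesioned tissue in both genotypes and of Cd163, which was not. Windows run from 250 bases before to 50 bases after the transcription start and come from RefSeq (build GRCm38.p6). Of the 10 genes, 8 had a window in that table, and Lyve1 and Clec10a did not. Capitals mark GAGGAA on either strand (TTCCTC on the printed one), the core that PU.1, the master transcription factor of myeloid cells, binds. The windows are chr2:14229164-14229463 on the plus strand for Mrc1, chr5:100572156-100572455 on the minus strand for Plac8, chr15:75111922-75112221 on the minus strand for Ly6c2 and chr6:124304401-124304700 on the plus strand for Cd163.
Mrc1: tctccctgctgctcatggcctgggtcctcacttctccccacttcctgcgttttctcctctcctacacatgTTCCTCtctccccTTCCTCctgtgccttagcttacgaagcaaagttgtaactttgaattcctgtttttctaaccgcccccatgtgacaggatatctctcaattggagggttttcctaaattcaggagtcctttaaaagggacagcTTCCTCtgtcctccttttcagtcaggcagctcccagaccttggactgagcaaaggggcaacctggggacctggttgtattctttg
Plac8: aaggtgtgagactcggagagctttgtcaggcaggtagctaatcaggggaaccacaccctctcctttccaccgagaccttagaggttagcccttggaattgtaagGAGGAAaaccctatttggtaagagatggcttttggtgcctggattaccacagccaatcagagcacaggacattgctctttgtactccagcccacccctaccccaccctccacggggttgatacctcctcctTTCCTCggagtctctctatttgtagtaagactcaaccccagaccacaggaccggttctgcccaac
Ly6c2: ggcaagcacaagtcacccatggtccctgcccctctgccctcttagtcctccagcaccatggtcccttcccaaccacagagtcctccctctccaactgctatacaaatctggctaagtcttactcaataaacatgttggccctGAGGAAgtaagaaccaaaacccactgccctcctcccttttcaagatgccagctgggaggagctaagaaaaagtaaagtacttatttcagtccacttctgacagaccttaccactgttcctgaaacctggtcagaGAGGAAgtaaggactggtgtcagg
Cd163: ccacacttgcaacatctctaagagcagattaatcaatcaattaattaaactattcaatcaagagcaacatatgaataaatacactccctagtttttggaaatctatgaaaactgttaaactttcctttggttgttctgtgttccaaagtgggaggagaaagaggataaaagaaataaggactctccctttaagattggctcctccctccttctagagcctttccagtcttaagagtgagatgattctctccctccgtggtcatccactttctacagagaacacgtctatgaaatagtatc
GAGGAA occurred in 6 of the 8 windows, with 3 copies in Mrc1, 2 each in Plac8 and Ly6c2 and 1 each in F13a1, Pf4 and Cbr2, and in none for Cd163 and Folr2. The 3 rising genes printed are those with the most copies, whereas Folr2, not printed, also rose in both genotypes and holds none. Whether the motif goes with a rise was not tested. Over all 32851 RefSeq promoter windows of that length, 28.28% hold it. TGCTGA, the half-site of MAF factors, was in 2 of the 8 windows (Cbr2 and Folr2), against 19.48% of all windows. The interferon response core was in 0 of the 8, against 3.44% of all windows. The motifs were searched on both strands, and a match is a run of letters rather than a measured binding site.

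Libraries held 21209920 to 26911840 counts and 19557 to 20272 detected genes. Dkk1 itself had 7 to 44 counts per library in DKK1 ipsilateral and 4 to 13 in DKK1 contralateral tissue, against 0 in all 6 WT libraries, so the genotypes match their labels. Microglia genes, the resident macrophage genes of brain tissue, were present in every library. The summed level of 10 homeostatic microglia genes was 704 to 776 CPM, the count scaled to library size, in DKK1 ipsilateral, 492 to 812 in WT ipsilateral, 217 to 293 in DKK1 contralateral and 232 to 357 in WT contralateral libraries. WT ipsilateral 1 stood apart from the other 2 libraries of its group for several of the genes below. Every count column but that of WT ipsilateral 1 has an ending added to its name, whose meaning is not stated, and the counts of each library stand in a constant ratio to its deposited TPM (to within 0.0193%). CPM were scaled by the TMM method, and a gene is said to have risen or fallen where edgeR's quasi-likelihood test gave an adjusted p (Benjamini-Hochberg over all 17612 genes) under 0.05.

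In the lesioned hemisphere 8 of the 10 genes rose relative to the intact hemisphere, in DKK1 mice and in WT mice alike, and each of the 8 had every ipsilateral library above every contralateral one in both genotypes. The 2 that did not pass in either genotype in this fit, which does not pair libraries, were Cd163 and Lyve1. With same-numbered hemispheres treated as pairs in edgeR, Lyve1 passed in DKK1 mice (log2 fold change 0.83, adjusted p = 0.0236), where that pairing is uncertain. Cd163 fell in WT mice on those terms (−0.45, adjusted p = 0.0333). The background was high: 27.5% of all genes tested were higher in DKK1 lesioned tissue and 21.2% in WT lesioned tissue by the same rule, and 32.1% and 26.5% of all genes had all ipsilateral libraries above all contralateral ones. The median log2 fold change of the 10 genes was 2.68 in DKK1 and 2.03 in WT mice, against 0.01 for all genes tested in each. Of the 8 genes, Pf4, Plac8 and Ly6c2 passed the filter on low counts only through their lesioned libraries. A high level in lesioned tissue was thus a condition for testing them, and their calls add little to the count of 8.

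**Figure D1:**
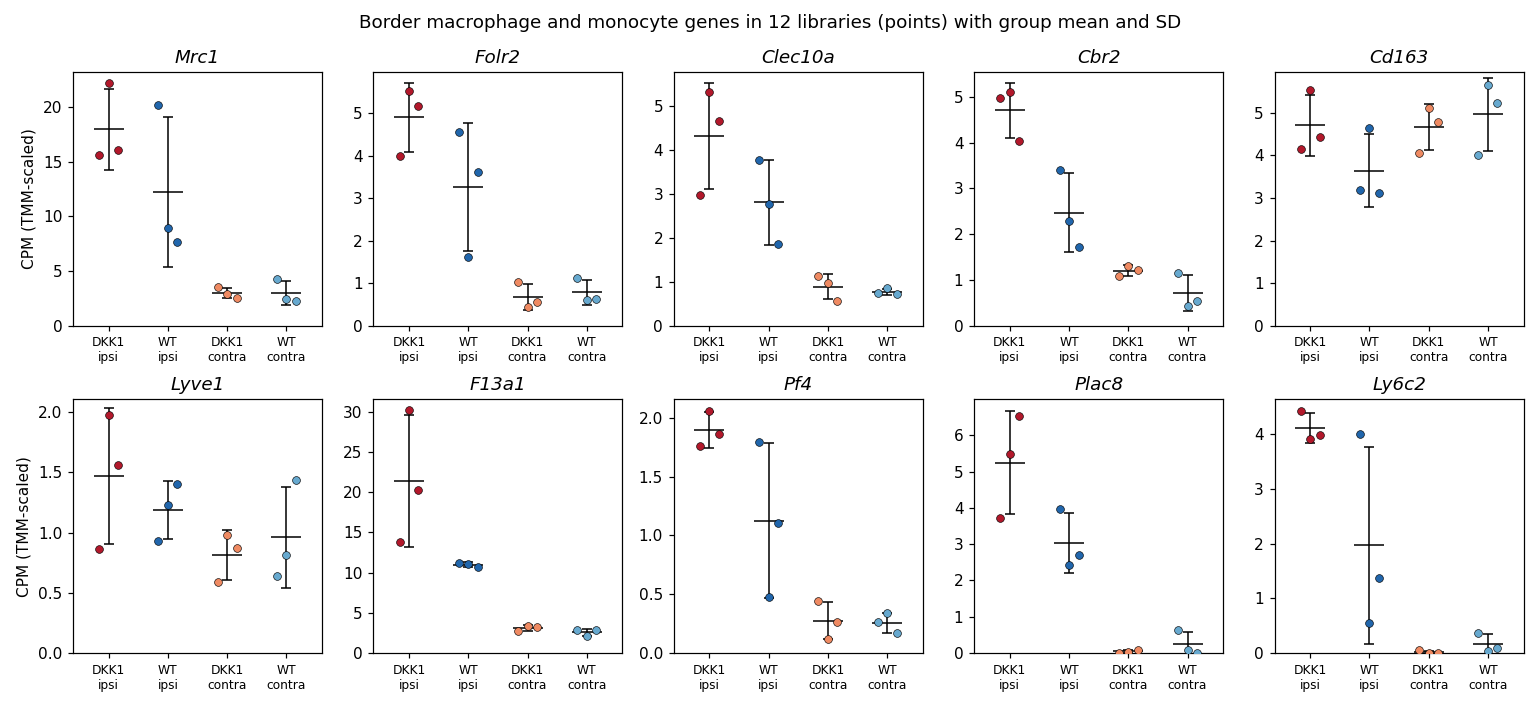
Level of each of the 10 genes in each library (CPM on a linear axis from 0), one panel per gene, with the groups in the order DKK1 ipsilateral, WT ipsilateral, DKK1 contralateral and WT contralateral. Points are single libraries, and the black marks are the group mean with its SD. For 8 genes both ipsilateral groups lie above both contralateral groups, while Cd163 lies between 3.12 and 5.64 CPM in all 12 libraries.

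The uptake receptors and macrophage markers come first. Mrc1, the mannose receptor CD206 (chromosome 2, 14229414 to 14332023, plus strand, 30 exons), had 15.6, 22.2 and 16.1 CPM in DKK1 ipsilateral libraries and 3.53, 2.91 and 2.57 CPM in DKK1 contralateral libraries. WT levels were 20.1, 8.95 and 7.65 CPM in ipsilateral and 4.24, 2.48 and 2.24 CPM in contralateral libraries. WT 1 was the highest WT library in both hemispheres, and no ipsilateral library overlapped the contralateral ones of its genotype. The log2 fold change was 2.58 ± 0.37 in DKK1 mice (SE, adjusted p = 2.02e-04) and 2.03 ± 0.37 in WT mice (adjusted p = 0.00176). Without WT ipsilateral 1 the WT value was 1.46 (adjusted p = 0.00207). A microRNA gene, Mir511, lies within Mrc1 on the same strand in the count table, and reads of the 2 cannot be told apart where they overlap.

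Folr2, the folate receptor beta of tissue-resident macrophages (chromosome 7, 101839988 to 101845331, minus strand, 5 exons), had 3.99, 5.53 and 5.18 CPM in DKK1 ipsilateral and 1.03, 0.451 and 0.567 CPM in DKK1 contralateral libraries. In WT it had 4.56, 1.62 and 3.61 CPM in ipsilateral and 1.13, 0.598 and 0.633 CPM in contralateral libraries. WT ipsilateral 2 was the lowest lesioned library and still above every intact one. Folr2 rose by 2.86 ± 0.42 on the log2 scale in DKK1 mice (adjusted p = 1.97e-04) and by 2.04 ± 0.41 in WT mice (adjusted p = 0.00282).

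Clec10a, a galactose-type lectin of macrophages and dendritic cells (chromosome 11, 70166623 to 70170836, plus strand, 10 exons), had 2.97, 5.32 and 4.66 CPM in DKK1 ipsilateral and 1.13, 0.984 and 0.567 CPM in DKK1 contralateral libraries. Its WT levels were 3.77, 2.77 and 1.86 CPM in ipsilateral and 0.750, 0.855 and 0.718 CPM in contralateral libraries. The hemispheres did not overlap in either genotype, and the gene rose by 2.27 ± 0.33 in DKK1 mice (log2, adjusted p = 1.92e-04) and by 1.85 ± 0.34 in WT mice (adjusted p = 0.00165). Mgl2, the neighbour with which it shares sequence, had 1.68 ± 0.55 in DKK1 mice (adjusted p = 0.0246) and 0.89 ± 0.54 in WT mice (adjusted p = 0.219).

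Cbr2, a carbonyl reductase used as a marker of resident macrophages (chromosome 11, 120729485 to 120732021, minus strand, 8 exons), had 4.97, 5.11 and 4.02 CPM in DKK1 ipsilateral and 1.08, 1.31 and 1.22 CPM in DKK1 contralateral libraries. It had 3.40, 2.30 and 1.71 CPM in WT ipsilateral and 1.16, 0.427 and 0.549 CPM in WT contralateral libraries. All 3 DKK1 ipsilateral libraries lay above all other libraries. The lesion difference was 1.96 ± 0.33 in DKK1 mice (log2, adjusted p = 4.94e-04) and 1.77 ± 0.35 in WT mice (adjusted p = 0.00266).

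Cd163, the haemoglobin-haptoglobin scavenger receptor (chromosome 6, 124304651 to 124330527, plus strand, 17 exons), had nearly the same level on both sides of the brain. It had 4.15, 5.53 and 4.43 CPM in DKK1 ipsilateral and 4.07, 5.12 and 4.79 CPM in DKK1 contralateral libraries. In WT it had 3.18, 4.64 and 3.12 CPM in ipsilateral and 4.01, 5.64 and 5.23 CPM in contralateral libraries. The hemispheres overlapped in both genotypes, with log2 fold changes of 0.01 ± 0.20 in DKK1 mice (adjusted p = 0.972) and −0.44 ± 0.20 in WT mice (adjusted p = 0.105). With same-numbered libraries of a genotype treated as pairs, Cd163 was lower in the lesioned WT hemisphere (log2 fold change −0.45, adjusted p = 0.0333), and so it was without WT ipsilateral 2 (−0.66, adjusted p = 0.0270). The sign in DKK1 mice turned negative under other scalings and was never past the threshold.

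Lyve1, a hyaluronan receptor of perivascular macrophages and of lymphatic endothelium (chromosome 7, 110850607 to 110862953, minus strand, 6 exons), had 0.861, 1.98 and 1.56 CPM in DKK1 ipsilateral libraries (22, 48 and 42 counts) and 0.588, 0.984 and 0.872 CPM in DKK1 contralateral libraries (12, 24 and 20 counts). WT levels were 0.934, 1.23 and 1.41 CPM in ipsilateral and 0.638, 0.812 and 1.44 CPM in contralateral libraries. The hemispheres overlapped in both genotypes, with log2 fold changes of 0.84 ± 0.38 in DKK1 mice (adjusted p = 0.0897) and 0.31 ± 0.38 in WT mice (adjusted p = 0.552). Paired by number, Lyve1 passed in DKK1 mice (0.83, adjusted p = 0.0236), as it did without DKK1 ipsilateral 1 (1.11, adjusted p = 0.0294). The pairing of hemispheres by number is uncertain in DKK1 mice. Of the 5 lymphatic endothelial markers, Ccl21a was at 0 in all 12 libraries, and the others did not move together. Pdpn averaged 45.0 CPM in DKK1 ipsilateral and 10.6 in DKK1 contralateral tissue and rose in both genotypes, while Reln averaged 73.3 and 117.7 CPM in the same groups and fell in both. Prox1 rose in WT mice (65.3 CPM in WT ipsilateral and 30.2 in WT contralateral tissue) and did not pass in DKK1 mice (43.9 and 36.0 CPM), a difference that was itself not past the threshold (interaction adjusted p = 0.435), and Flt4 passed in neither genotype. Their part in the Lyve1 level was not tested.

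**Figure D2:**
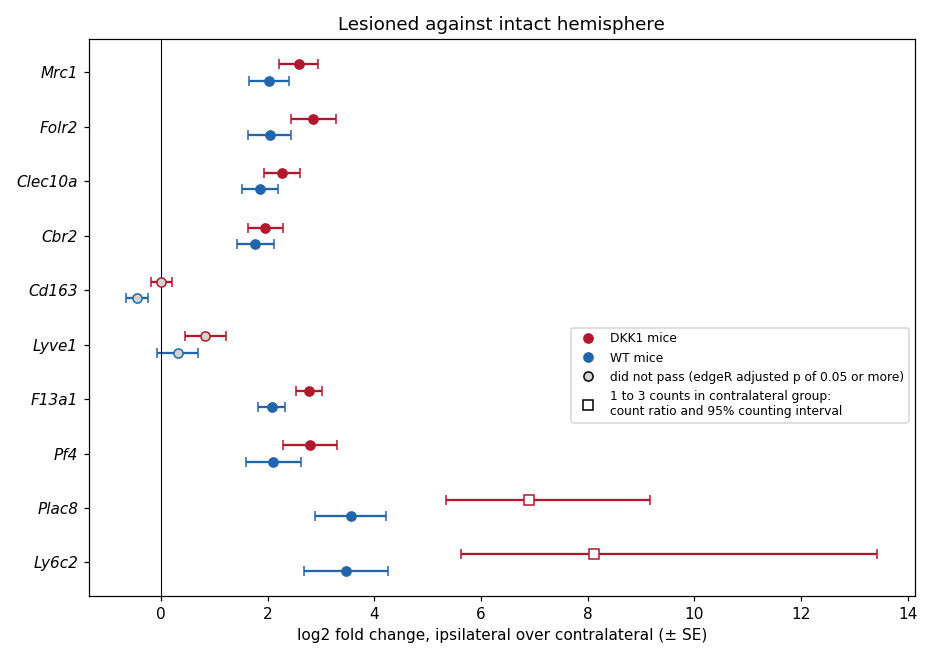
Log2 fold change of each gene between ipsilateral and contralateral hemisphere (points, with bars for the SE), with DKK1 above WT in each row; open squares are count ratios with exact 95% intervals (Plac8 and Ly6c2 in DKK1 mice), and grey points did not pass. The 8 genes that passed lie right of 0 in both genotypes, while Cd163 and Lyve1 are grey in both in this fit, which does not pair libraries.

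The transcripts of both secreted proteins of the set rose. F13a1 encodes the A subunit of coagulation factor XIII, the transglutaminase that crosslinks fibrin (chromosome 13, 36867178 to 37049213, minus strand, 15 exons). It had 13.9, 30.2 and 20.3 CPM in DKK1 ipsilateral and 2.74, 3.36 and 3.27 CPM in DKK1 contralateral libraries. WT libraries had 11.2, 11.1 and 10.7 CPM on the ipsilateral and 2.85, 2.09 and 2.87 CPM on the contralateral side. The WT ipsilateral libraries were close together and all lay below the 3 DKK1 ipsilateral ones, of which number 2 was highest. F13a1 rose by 2.77 ± 0.25 in DKK1 mice (log2, adjusted p = 6.22e-06) and by 2.08 ± 0.25 in WT mice (adjusted p = 1.28e-04), the smallest p of the 10 genes in each genotype.

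Pf4, the chemokine CXCL4 of border macrophages and of platelet granules (chromosome 5, 90772435 to 90773383, plus strand, 3 exons), had 1.76, 2.06 and 1.86 CPM in DKK1 ipsilateral and 0.441, 0.123 and 0.262 CPM in DKK1 contralateral libraries. In WT it had 1.79, 0.475 and 1.10 CPM in ipsilateral and 0.263, 0.342 and 0.169 CPM in contralateral libraries. WT ipsilateral 2, with 12 counts, came closest to the intact side without reaching it. The log2 fold change was 2.80 ± 0.50 in DKK1 mice (adjusted p = 7.51e-04) and 2.11 ± 0.51 in WT mice (adjusted p = 0.00786), and in WT it did not pass without WT 1 of both hemispheres (1.62, adjusted p = 0.0643). Of 5 other platelet and megakaryocyte genes tested, 0 rose and 1 fell (Gp1bb) in each genotype, and Ppbp, the platelet chemokine, had 5 counts or fewer in every group.

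Both monocyte genes had few counts in intact tissue. Plac8, a small cysteine-rich protein abundant in monocytes (chromosome 5, 100553726 to 100572205, minus strand, 5 exons), had 3.72, 5.49 and 6.52 CPM in DKK1 ipsilateral libraries (95, 133 and 175 counts) and 0, 0.041 and 0.087 CPM in DKK1 contralateral libraries (0, 1 and 2 counts). In WT it had 3.96, 2.42 and 2.701 CPM in ipsilateral libraries (106, 61 and 71 counts) and 0.638, 0.085 and 0 CPM in contralateral libraries (17, 2 and 0 counts). WT contralateral 1 held 17 of the 19 counts of its group. In DKK1 mice the ratio of summed counts scaled for depth was 119 (exact 95% interval 40.4 to 578, which covers counting error only; adjusted p = 7.91e-05), and in WT mice the log2 fold change was 3.56 ± 0.66 (adjusted p = 0.00194). Without DKK1 contralateral 3, which held 2 of the 3 counts, the DKK1 ratio was 236 (42.1 to 9331). Without WT contralateral 1, which left 2 counts in its group, the WT ratio was 71.6 (19.6 to 594).

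Ly6c2, one of the genes of the Ly6C antigen on inflammatory monocytes (chromosome 15, 75108161 to 75111971, minus strand, 4 exons), had 4.42, 3.92 and 3.99 CPM in DKK1 ipsilateral libraries (113, 95 and 107 counts) and 0.049, 0 and 0 CPM in DKK1 contralateral libraries (1, 0 and 0 counts). In WT it had 3.999, 0.555 and 1.37 CPM in ipsilateral libraries (107, 14 and 36 counts) and 0.375, 0.043 and 0.084 CPM in contralateral libraries (10, 1 and 2 counts). The DKK1 ipsilateral libraries were close together, and WT ipsilateral 1 was at their level while the other 2 WT libraries were lower. The scaled count ratio in DKK1 mice was 279 (exact 95% interval 49.6 to 11035, adjusted p = 1.77e-04), and the WT log2 fold change was 3.47 ± 0.78 (adjusted p = 0.00554). DKK1 contralateral 1 held the single count of its group, and without it Ly6c2 was at least 64.9-fold higher in DKK1 ipsilateral tissue (against a floor of 3 counts over the group). In WT the log2 fold change was 2.44 without WT ipsilateral 1 (adjusted p = 0.0163), which held 107 of 157 counts. Without WT contralateral 1, which left 3 counts, the WT ratio was 31.5 (10.6 to 154). The near-identical Ly6c1 had 29.6 to 38.3 CPM in the DKK1 contralateral libraries, where Ly6c2 had 1 count in all, so few of its reads were counted to Ly6c2 there. Ly6c1 did not pass in either genotype, with log2 fold changes of 0.21 ± 0.17 in DKK1 (adjusted p = 0.341) and 0.03 ± 0.17 in WT mice (adjusted p = 0.914).

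Per kilobase of transcript, the order of the genes differed between hemispheres. Mean levels in DKK1 ipsilateral tissue were highest for Plac8 (7.53 CPM per kb), F13a1 (5.55) and Ly6c2 (5.03) and lowest for Cd163 (1.05) and Lyve1 (0.565), and in WT ipsilateral tissue highest for Plac8 (4.35), Folr2 (3.04) and F13a1 (2.85) and lowest for Cd163 (0.815) and Lyve1 (0.458). In intact tissue Cbr2 (1.19) and Cd163 (1.04) led in DKK1 mice and Cd163 (1.11) and Folr2 (0.731) in WT mice. There Plac8 and Ly6c2 were the lowest of the 10, at 0.0614 and 0.0200 CPM per kb in DKK1 and 0.346 and 0.205 in WT mice.

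The rise was shared with other genes of the same cell types. Of 17 further border macrophage genes 14 were tested, and 13 rose in DKK1 and 11 in WT lesioned tissue. The smallest p in both genotypes was that of Stab1, a scavenger receptor (183.8 CPM in DKK1 ipsilateral and 29.7 in DKK1 contralateral tissue on average, log2 fold change 2.63 ± 0.14, adjusted p = 8.44e-07; WT 2.17 ± 0.14, adjusted p = 1.32e-05). In DKK1 mice it was followed by Colec12 (3.09), Cd38 (3.05) and Maf (1.46). Of 17 further monocyte genes 16 were tested. In DKK1 mice 13 rose and 1 fell (Gda), and in WT mice 13 rose and 0 fell. S100a4, a calcium-binding protein, rose by 3.80 ± 0.30 in DKK1 and 2.85 ± 0.30 in WT mice (log2), and Itgal, an integrin chain of leukocytes, by 3.70 ± 0.30 and 2.83 ± 0.29. Ccr2, the receptor that brings monocytes out of bone marrow, is named after its values were seen, as the defining monocyte marker. It averaged 13.04 ± 2.64 CPM in DKK1 ipsilateral and 0.327 ± 0.0652 CPM in DKK1 contralateral tissue, and 9.19 ± 5.58 CPM in WT ipsilateral and 0.616 ± 0.706 CPM in WT contralateral tissue (SD, n = 3 each).

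Markers of other cells moved as well. All 10 pan-myeloid genes rose in both genotypes, as did 8 (DKK1) and 7 (WT) of 10 homeostatic microglia genes, 8 and 6 of 10 dendritic cell genes, 4 of the 4 neutrophil genes tested (of 8 listed), 10 of 11 lymphocyte genes and all 8 genes of fibroblasts and meninges. Some of these genes passed the filter only through lesioned libraries, which favours a rise among the genes tested. Mmp8 of the neutrophil list had 2 counts in DKK1 contralateral and 4 in WT contralateral tissue. Among the untested neutrophil genes, Camp averaged 0.069 CPM in DKK1 ipsilateral and 0.119 in DKK1 contralateral tissue. The other gene of the lymphocyte list, Cd4, fell in both genotypes, with 18.8 CPM in DKK1 ipsilateral and 38.5 in DKK1 contralateral tissue, and 14.9 CPM in WT ipsilateral and 41.4 in WT contralateral tissue. Cd3e, of the same list, averaged only 0.088 CPM in DKK1 contralateral and 0.094 in WT contralateral tissue. The Cd4 level of intact tissue therefore cannot be read as a level of lymphocytes. Choroid plexus genes rose for 2 of 6 in DKK1 and 6 of 6 in WT mice, and their sum was 181 to 392 CPM in DKK1 ipsilateral and 115 to 171 in DKK1 contralateral libraries, and 195 to 378 in WT ipsilateral and 62.0 to 131 in WT contralateral libraries. The lesion effect of these genes did not differ between genotypes past the threshold. In the edgeR interaction 0 of 6 passed, and 0 had an unadjusted p under 0.05. Of 5 plasmacytoid dendritic cell genes tested 3 rose in each genotype, and of 7 blood endothelial genes 3 rose in DKK1 and 2 in WT mice. The summed fibroblast and meninges level was 744 to 1010 CPM in DKK1 ipsilateral, 449 to 965 in WT ipsilateral, 113 to 134 in DKK1 contralateral and 117 to 193 in WT contralateral libraries. Ly6g, the defining neutrophil marker, had 3 counts in DKK1 ipsilateral tissue and 0 in the other groups. Their part in the levels of the 10 genes was not tested.

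Set against the summed level of the 10 pan-myeloid genes, 5 of the 10 genes (Mrc1, F13a1, Folr2, Clec10a and Pf4) had shares that overlapped between hemispheres in both genotypes. The pan-myeloid sum was 939 to 1108 CPM in DKK1 ipsilateral, 594 to 1010 in WT ipsilateral, 141 to 164 in DKK1 contralateral and 137 to 228 in WT contralateral libraries. Mrc1 equalled 1.74% of that sum in DKK1 ipsilateral, 1.52% in WT ipsilateral, 2.0% in DKK1 contralateral and 1.74% in WT contralateral tissue. F13a1 equalled 2.06%, 1.49%, 2.11% and 1.59% in the same order of groups, and Folr2 0.473%, 0.410%, 0.447% and 0.457%. Cd163 was lower in lesioned tissue on this scale, at 0.456% in DKK1 ipsilateral and 0.510% in WT ipsilateral against 3.15% in DKK1 contralateral and 3.17% in WT contralateral tissue, with no overlap between hemispheres. Lyve1 shared that pattern, at 0.140% and 0.165% in DKK1 and WT ipsilateral against 0.554% and 0.622% in DKK1 and WT contralateral tissue. The pan-myeloid sum was itself higher in lesioned tissue, so any gene without a rise of its own comes out lower on this scale, myeloid or not. The platelet and megakaryocyte sum, for example, equalled 11.6% of it in DKK1 ipsilateral and 109% in DKK1 contralateral tissue. Most of that sum was Gp1bb, which itself fell (150.6 CPM of a sum of 162.4 CPM in DKK1 contralateral tissue on average), so it is not a level of platelets. Plac8 and Ly6c2 were higher in DKK1 lesioned tissue, at 0.502% and 0.401% against 0.0298% and 0.00996% in DKK1 contralateral tissue, and in WT only Plac8 did not overlap (0.392% in ipsilateral against 0.114% in contralateral tissue). Cbr2 was lower in DKK1 lesioned tissue, at 0.460% against 0.811% in DKK1 contralateral tissue, without overlap, and overlapped in WT. These are descriptive ratios of levels, since no test was run on the ratio. The share of all genes that overlap or not on this scale was not computed, so the counts above have no background to be set against.

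**Figure D3:**
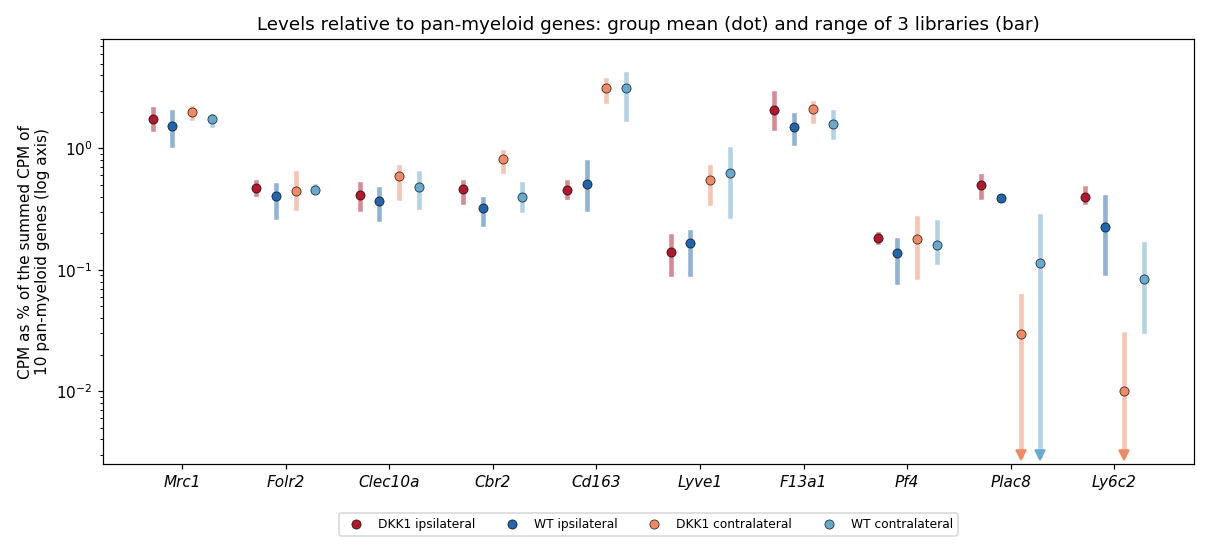
Level of each of the 10 genes as a percent of the summed CPM of 10 pan-myeloid genes (log axis), with the group mean as a dot and the range of 3 libraries as a bar (an arrow where the lowest library is at 0), in the order DKK1 ipsilateral, WT ipsilateral, DKK1 contralateral and WT contralateral. Cd163 and Lyve1 lie lower in the ipsilateral groups, Plac8 and Ly6c2 mostly higher, and Mrc1, F13a1, Folr2, Clec10a and Pf4 overlap between hemispheres.

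Between genotypes in the lesioned hemisphere, 0 of the 10 genes passed, while all 10 had a positive log2 fold change of DKK1 over WT, from 0.30 for Lyve1 to 1.05 for Ly6c2 (median 0.68, against 0.02 for all genes tested). By the same rule 2.37% of all genes were called. At an unadjusted p under 0.05 the count was 2 of 10, against 20.9% of all genes, DESeq2 called 1 of the 10 (7.14% of all genes) and limma-voom 0 (3.75%). The nearest to the threshold was F13a1, with all DKK1 libraries above all WT ones as given above, a log2 fold change of 0.96 ± 0.23 and an adjusted p of 0.0501 (edgeR), or 0.00466 with DESeq2. Cbr2 followed with 0.93 ± 0.31 (adjusted p = 0.124) and likewise no overlap. Of all genes, 13.3% had every DKK1 ipsilateral library above every WT one.

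WT ipsilateral 1 decided much of this comparison. Its Mrc1 level of 20.1 CPM and its Ly6c2 level of 3.999 CPM lie within the DKK1 range, whereas the other 2 WT libraries were lower for both genes. Without it, 4 of the 10 genes passed: Mrc1 (log2 fold change 1.11 ± 0.25, adjusted p = 0.0154), Ly6c2 (2.08 ± 0.49, adjusted p = 0.0187), Cbr2 (1.23 ± 0.32, adjusted p = 0.0269) and F13a1 (0.97 ± 0.26, adjusted p = 0.0347), all higher in DKK1 mice, against 14.3% of all genes called either way. Without WT 1 of both hemispheres, a choice made after seeing the data, Plac8 was a 5th (1.03, adjusted p = 0.0447), and 18.3% of all genes were called. Without DKK1 ipsilateral 1, F13a1 alone passed (adjusted p = 0.00558), with 6.01% of all genes called. Those fits rest on 2 libraries in a group and take that group's spread as like that of the others. WT ipsilateral 1 also had the highest summed pan-myeloid level of its group (1010 CPM, against 594 and 717 in the other 2) and the highest fibroblast and meninges sum (965 CPM, against 459 and 449), whose part in the result was not tested.

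**Figure D4:**
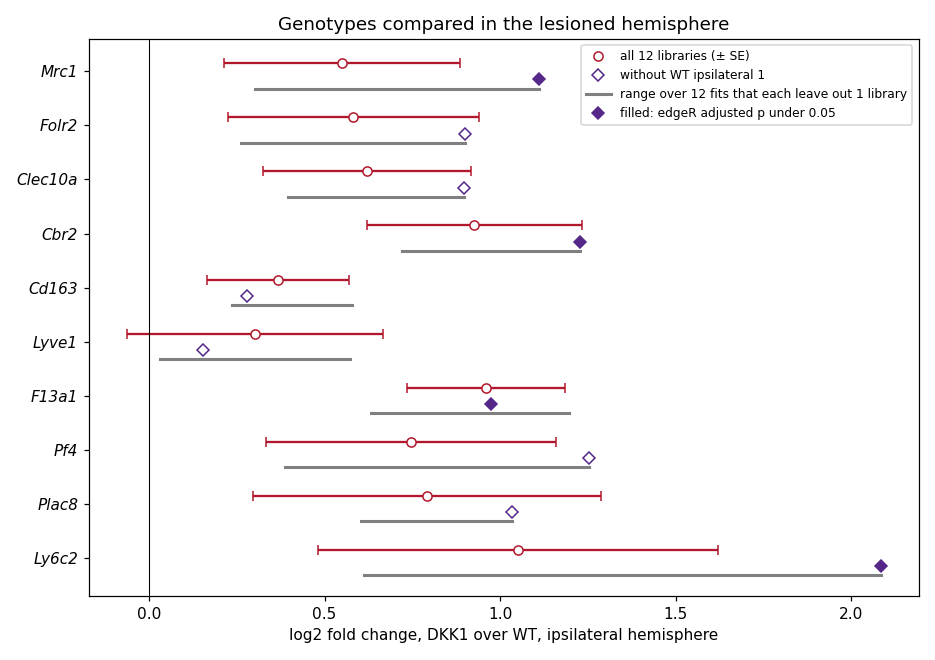
Log2 fold change of DKK1 over WT for each gene in the ipsilateral hemisphere, from all 12 libraries (circles, with bars for the SE), without WT ipsilateral 1 (diamonds, filled where adjusted p was under 0.05) and over the 12 fits that each leave out 1 library (grey lines, the range). All circles lie right of 0 and none is filled, while the diamonds of Mrc1, F13a1, Cbr2 and Ly6c2 are filled.

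Among the further border macrophage genes 2 of 14 rose in DKK1 over WT lesioned tissue. Colec12, a collectin scavenger receptor, averaged 117.7 ± 16.3 CPM in DKK1 ipsilateral and 45.5 ± 10.5 CPM in WT ipsilateral libraries (SD, n = 3 each; log2 fold change 1.37 ± 0.23 by edgeR, adjusted p = 0.0116). Cd209f, a C-type lectin, averaged 1.13 ± 0.0993 CPM in DKK1 ipsilateral and 0.472 ± 0.0775 CPM in WT ipsilateral libraries (log2 fold change 1.25 ± 0.29 by edgeR, adjusted p = 0.0452). Its level was also higher in DKK1 on the intact side, at 0.588 to 0.697 CPM in DKK1 contralateral and 0.128 to 0.300 CPM in WT contralateral libraries. On that side 0 of the 14 genes passed between genotypes, Cd209f included, so whether its difference is particular to the lesion is not settled. Cd209f also rests on few counts, with 87 in DKK1 and 37 in WT ipsilateral tissue. Contralateral tissue held 44 in DKK1 and 18 in WT. Of the further monocyte genes 0 of 16 passed (edgeR, 6 at an unadjusted p under 0.05), with S100a4 nearest at 0.97 ± 0.25 (adjusted p = 0.0621). The pan-myeloid genes gave 0 of 10 (5 at an unadjusted p under 0.05), with a median log2 fold change of 0.48. As a share of the pan-myeloid sum, the 10 genes together came to 5.99%, 8.31% and 6.19% in DKK1 ipsilateral and 5.64%, 6.07% and 4.91% in WT ipsilateral libraries, ranges that overlap.

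Genes of other cells also differed between genotypes in lesioned tissue. The lymphocyte sum was 96.0 to 142 CPM in DKK1 ipsilateral and 52.8 to 57.7 CPM in WT ipsilateral libraries, without overlap, and 1 of 11 lymphocyte genes passed, the B cell gene Ms4a1 (log2 fold change 1.53 ± 0.27 by edgeR, adjusted p = 0.0167). Of blood endothelial genes 1 of 7 passed, the adhesion molecule Pecam1 (0.51 ± 0.08, adjusted p = 0.00882), and of fibroblast and meninges genes 1 of 8, the retinoic acid enzyme Aldh1a2 (0.72 ± 0.15, adjusted p = 0.0363). The part of these cells in the levels of the 10 genes was not tested.

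In the intact hemisphere 0 of the 10 genes passed between genotypes by edgeR, 0 had an unadjusted p under 0.05, and DESeq2 and limma-voom also called 0, while edgeR called 0.88% of all genes and 6.08% had an unadjusted p under 0.05. The median log2 fold change was −0.05. Cbr2 had the largest positive value (0.74 ± 0.37, adjusted p = 0.893). Its CPM overlapped between genotypes, with WT contralateral 1 at 1.16 CPM. As a share of the pan-myeloid sum Cbr2 was 0.657% to 0.932% in DKK1 contralateral and 0.313% to 0.510% in WT contralateral libraries, which did not overlap. That sum was 228 CPM in WT contralateral 1, against 137 and 145 CPM in WT contralateral 2 and 3, which lowers the share of WT contralateral 1. No share over all genes was computed on this scale. The scaled count ratio of DKK1 to WT was 0.172 for Plac8 (exact 95% interval 0.0326 to 0.584) and 0.0837 for Ly6c2 (0.00197 to 0.557), and these rest on WT contralateral 1, which held 17 of 19 and 10 of 13 WT counts. Without it, Plac8 had 3 counts in DKK1 and 2 in WT contralateral tissue and Ly6c2 had 1 and 3, at or under a floor of 3 counts, so no fold is given.

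The difference between genotypes in the lesion effect passed for 0 of the 10 genes (edgeR), when 0.00568% of all genes, a single gene, were called. The signed difference, the lesion log2 fold change of DKK1 minus that of WT mice, was positive for all 10, with a median of 0.62. For Cd163 this came from a value near 0 in DKK1 (0.01) and a negative one in WT mice (−0.44). At an unadjusted p under 0.05 were 2 genes, Plac8 (3.18 ± 1.32, adjusted p = 0.503) and Ly6c2 (4.22 ± 1.76, adjusted p = 0.503), against 9.59% of all genes, and both rest on groups with 1 to 3 counts. The lesion effects and the genotype differences share libraries, so these values are not separate evidence. With same-numbered hemispheres of a genotype treated as pairs, 288 genes were called for this interaction, and 0 of the 10 were among them. Ly6c2 came nearest in that edgeR fit (4.16 ± 0.91, adjusted p = 0.0508), with the same few counts in DKK1 contralateral tissue.

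**Figure D5:**
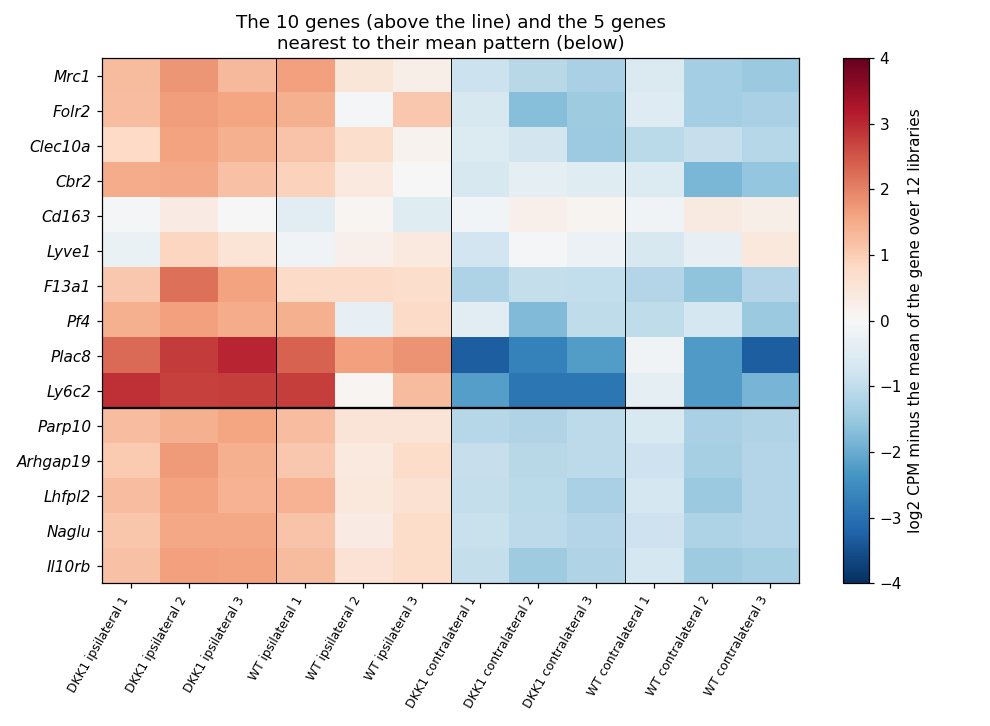
Log2 CPM of each gene centred on its own mean over the 12 libraries (colour scale), with libraries in columns by group, the 10 genes above the line and the 5 genes nearest to their mean pattern below it. The ipsilateral columns are high for 8 genes, Cd163 is nearly flat, and WT ipsilateral 1 is closer to the DKK1 ipsilateral columns than the other 2 WT libraries for Mrc1 and Ly6c2.

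Over the 12 libraries Mrc1 lay closest to the mean pattern of the 10 genes, with a root mean square difference of 0.206 in centred log2 CPM. Folr2 (0.289), F13a1 (0.311), Clec10a (0.339), Pf4 (0.397) and Cbr2 (0.453) followed. Lyve1 (0.980) and Cd163 (1.27) were flatter than the mean, and Ly6c2 (1.19) and Plac8 (1.38) were steeper. Among 15779 other genes outside all lists, those most like the mean pattern were Parp10 (0.107), Arhgap19 (0.120), Lhfpl2 (0.121), Naglu (0.122) and Il10rb (0.127). Il10rb, a chain of the interleukin-10 receptor, averaged 54.8 CPM in DKK1 ipsilateral, 36.5 in WT ipsilateral, 8.63 in DKK1 contralateral and 9.02 in WT contralateral tissue. Naglu, a lysosomal enzyme that degrades heparan sulfate, averaged 71.4, 45.5, 12.99 and 12.7 CPM in the same order. These likenesses are over libraries that share lesion and genotype, and are given as a description.

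In the 10-Mb windows that hold the 10 genes, calls between DKK1 and WT contralateral tissue were 2 of 53 genes around Pf4 (3.77%), 3 of 172 around Ly6c2 (1.74%) and 0 around each of the other 8, against 0.88% of all genes. In ipsilateral tissue the calls were 3 of 53 around Pf4, 8 of 172 around Ly6c2 and 0 to 2 around the others, against 2.37% of all genes.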

How the data were processed

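Directional mRNA libraries of 12 brain hemisphere samples were sequenced, per the labels' protocols (NEBNext Ultra II). The submitters' processing notes name the build mm10, HOMER 4.11, STAR 2.7.0f and DESeq2. Whether counting used strand is not stated there. As count data, the authors deposited raw counts for 1 transcript per gene symbol, in HOMER's layout per the file headers, with transcript length and position. They also deposited values labelled TPM, which hold the same transcript for 7 of the 10 genes. Given their constant ratio to the counts of each library, these values are counts rescaled per library and are not divided by transcript length. They were used only for an alternative on log2 values, which is thus not a separate measurement.

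From the counts, edgeR 4.0.16 (R 4.3.3) filtered genes by group (minimum count 10), scaled by TMM (factors 0.963 to 1.04) and fitted one robust quasi-likelihood model of all 12 libraries with 4 groups. Tests were two-sided, with adjusted p under 0.05 over 17612 genes. CPM per kb divides by the listed transcript length. Where a group held 1 to 3 counts, the ratio of counts has an exact Clopper-Pearson 95% interval, which covers counting error only. The fit was tested on simulated data. No 2 libraries agreed within sampling noise.

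Groups and numbers came from the labels. Same-numbered hemispheres deviated together from their group means, with correlations of 0.276, 0.125 and 0.105 in DKK1 and 0.487, 0.310 and 0.297 in WT mice. Each was over 0.1, so the numbers were taken to pair hemispheres within a genotype, although number 3 of DKK1 correlated more with another number (0.172). The main fit does not use these pairs, and the blocked value is given beside it where it changed a call. Numbers did not pair genotypes (−0.063 to 0.257). Alternatives were DESeq2 1.42.0, limma 3.58.1 (voom, and TPM with a pseudocount of 0.5 or 0.1), other scalings, no filter, the replicate block, only the groups compared, and each library left out. The 10 genes, the 14 lists beside them and these choices were made with earlier results of these data known. Named genes are the 10, up to 4 of each list with the smallest p, and the 5 nearest in pattern.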

Additional observations from a re-analysis of the deposited data

How the results depend on the processing

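The call of each of the 8 genes that rose in the lesioned hemisphere kept its direction and stayed past the threshold under the alternatives tried, except Pf4 in WT without WT 1 of both hemispheres (log2 fold change 1.62, adjusted p = 0.0643). Treating same-numbered hemispheres of a genotype as pairs (the replicate block) added Lyve1 in DKK1 (0.83) and Cd163 in WT mice (−0.45). It changed no other call of the 10 genes between hemispheres or for the interaction. Between genotypes the replicate block was a different model, which adjusted for the number across DKK1 and WT libraries although these were not taken to be paired. It changed no call of the 10 genes there. Between genotypes in the lesioned hemisphere, the direction held for the 10 genes in all 230 values, while the count of the 10 called was 1 with DESeq2, 5 without WT 1 of both hemispheres and 0 to 4 when 1 library was left out (4 without WT ipsilateral 1). The count over all genes moved more: from 417 it became 1184 with DESeq2, 661 with limma-voom, 97 with only the groups compared, 3244 without WT 1 of both hemispheres, and 119 to 2551 when 1 library was left out. Its split of 268 higher and 149 lower became 186 and 186 with upper-quartile scaling. In the intact hemisphere the count over all genes was 155, 285 with DESeq2 and 94 to 197 when 1 library was left out. For the interaction it was 1, then 69 with DESeq2, 0 with limma-voom, 288 with the replicate block, 11, 8 and 13 on TPM with pseudocount 0.5, 0.1 and no filter, 264 without WT 1 of both hemispheres, and 0 to 393 when 1 library was left out. Causes of these moves were not tested.

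Signs turned only for values near 0 or with few counts. For DKK1 against WT in the intact hemisphere, the Mrc1 log2 fold change of −0.0032 became 0.00013 with DESeq2, 0.029 with limma-voom, 0.036 with the replicate block, 0.016, 0.035 and 0.016 on TPM (pseudocount 0.5, 0.1, no filter), 0.34 without WT 1 of both hemispheres, and −0.17 to 0.34 when 1 library was left out. Pf4 became −0.042 with limma-voom and −0.021 on TPM with pseudocount 0.1, Folr2 0.12 and Plac8 0.051 without WT 1 of both hemispheres. Leaving out 1 library gave −0.45 to 0.18 for Lyve1, −0.22 to 0.015 for Cd163, −0.42 to 0.43 for Pf4, −0.64 to 0.12 for Folr2 and −3.24 to 0.051 for Plac8, while Ly6c2 stayed negative (−5.18 to −1.79). Cd163 between hemispheres of DKK1 mice became −0.0048 with DESeq2 size factors, −0.033 with upper-quartile scaling, −0.024 without a filter, −0.0070 with DESeq2, −0.0047 with limma-voom and −0.12 to 0.091 when 1 library was left out. The Cbr2 interaction became −0.069 without WT 1 of both hemispheres and −0.37 to 0.49 when 1 library was left out. Depth limits Pf4, Plac8 and Ly6c2 in intact tissue, where groups held 1 to 19 counts. With only the groups compared, Pf4, Plac8 and Ly6c2 fell below the filter in intact tissue and have no value there, and the interaction, which needs all groups, has none.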
